A study of Mus musculus with 12 samples.

Results

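Sphingosine-1-phosphate (S1P) receptors and the enzymes and exporter that set S1P levels were followed in the mouse abdominal aorta. The 9 genes were taken by symbol (S1pr1, S1pr2, S1pr3, S1pr4, S1pr5, Sphk1, Sphk2, Sgpl1 and Spns2) out of 55092 rows of the expression table. The members were chosen by symbol, with the FPKM of these same 4 groups known, so their differences between groups are a description and each adjusted p-value below describes the fit and is not independent evidence. S1pr3 was lower in every mouse of the other groups than in saline-treated CCN2fl/fl aorta. Against that aorta, groups did not overlap for 20.4% of all tested genes in saline-treated CCN2SMCΔ aorta and for 20.2% in Ang II-treated CCN2fl/fl aorta. Sgpl1 was higher in every Ang II-treated CCN2SMCΔ aorta than in any Ang II-treated CCN2fl/fl aorta, a separation shared by 48.5% of all tested genes in that comparison. S1pr2 was higher on average in the same comparison, but its groups overlapped and its adjusted p exceeded 0.05 in 5 of 12 omissions of 1 mouse.

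Libraries came from 12 male mice in 4 groups of 3. CCN2fl/fl mice carry floxed Ccn2 alleles and no Cre, and CCN2SMCΔ mice carry the same alleles with Myh11-Cre-ERT2, a tamoxifen-inducible recombinase driven by a smooth muscle myosin promoter, so other cell types of the wall keep the gene. All mice, controls included, received 5 doses of tamoxifen from 8 weeks of age, followed by a washout of 2 weeks. They were then infused for 7 days, giving the groups CFS (CCN2fl/fl, saline), CSS (CCN2SMCΔ, saline), CFA (CCN2fl/fl, Ang II) and CSA (CCN2SMCΔ, Ang II), with angiotensin II (Ang II, a vasoconstrictor peptide hormone) given by osmotic pump at 500 ng/kg/min. The comparisons ask how loss of CCN2, a matricellular protein, in smooth muscle changes the aorta with and without Ang II.

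S1P is a lipid mediator made inside cells when sphingosine is phosphorylated by the sphingosine kinases Sphk1 and Sphk2. Spns2 carries it out of endothelial cells, Sgpl1 cleaves it irreversibly, and 5 G protein-coupled receptors, encoded by S1pr1 to S1pr5, read it at the cell surface. In the vessel wall S1pr1 is best known from endothelium, where it maintains the barrier, S1pr2 and S1pr3 from smooth muscle, where they couple to contraction and RhoA signaling, and S1pr4 and S1pr5 mainly from leukocytes.

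Values are FPKM (fragments scaled to transcript length and library size), and 14558580 to 23107807 fragments per library could be recovered from them. Fold changes were fitted by limma on log2(FPKM + 0.1) in all 12 mice, for the 14676 genes at 1 FPKM or more in at least 3 mice, with Benjamini-Hochberg adjustment over those genes. A gene is called here when its adjusted p is under 0.05 and its absolute log2 fold change over 1.5. The targeted gene Ccn2 was at 480.1 to 1108 FPKM in CFS and 436 to 640 in CSS, ranges that overlap, and at 564 to 1105 in CFA and 255 to 399 in CSA, ranges that do not (limma log2 fold change -1.41, SE 0.34, adjusted p = 0.00622). The reading covers the whole Ccn2 gene, and which exons are removed is not given in the sources used here. The CSA library of mouse 03 stood apart. It had the fewest fragments. Its root-mean-square log2 distance was 1.21 from mouse 01 and 1.20 from mouse 02, against 0.51 between those 2 mice. Results that rest on it are therefore given with and without it, or with the range of the 3 CSA mice. Smooth muscle markers defined the tissue in CFS, CSS and CFA (10 genes including Myh11, Acta2 and Tagln, summed level 5699 to 10561 FPKM), whereas in CSA they summed to 823 to 977 FPKM. Acta2 made up most of the sum, with means of 5421 of 7388 FPKM in CFA and 730 of 905 in CSA. Tagln made up little of it (18.5 and 4.11 FPKM), so ratios to this sum lean on Acta2.

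The S1pr3 gene, which encodes a receptor coupled to Gi, Gq and G12/13, lies on the forward strand at chr13:51408639-51422797 (GRCm38, the assembly also called mm10). S1pr2, which encodes a receptor coupled mainly to G12/13 and RhoA, lies on the reverse strand at chr9:20962361-20976781. RefSeq promoter entries of GRCm38.p6 were found for 8 of the 9 genes, and the 250 bases before the start of these 2 receptor genes are shown because their levels moved in opposite directions between CFA and CSA. They span chr13:51408368-51408617 on the forward strand and chr9:20976794-20977043 on the reverse strand, and capitals mark matches to 6 searched motifs.
S1pr3: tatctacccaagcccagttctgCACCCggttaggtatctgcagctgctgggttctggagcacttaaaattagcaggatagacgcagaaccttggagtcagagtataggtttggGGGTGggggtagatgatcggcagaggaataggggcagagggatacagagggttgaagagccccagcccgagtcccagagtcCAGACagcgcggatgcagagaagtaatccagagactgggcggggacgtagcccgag
S1pr2: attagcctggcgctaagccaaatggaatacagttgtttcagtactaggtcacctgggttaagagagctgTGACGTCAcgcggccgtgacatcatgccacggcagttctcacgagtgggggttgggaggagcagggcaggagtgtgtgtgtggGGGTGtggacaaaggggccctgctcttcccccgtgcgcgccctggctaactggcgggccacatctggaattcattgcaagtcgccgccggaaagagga
The motifs were GGAATG for TEAD, TGACTCA for AP-1, CACCC for KLF, GTCTG for SMAD, TGACGTCA for the cyclic AMP response element (CRE) and the CArG box of serum response factor, each searched on both strands. The S1pr3 window held KLF matches starting 228 and 137 bases before the start and a SMAD match at 56 bases. The S1pr2 window held a CRE match at 181 bases and a KLF match at 98 bases. Neither set of matches overlapped another motif. Among 32817 promoters of the same length, 52.0% held the KLF letters, 42.2% the SMAD letters, 1.55% the CRE, 12.6% the TEAD letters, 4.46% the AP-1 letters and 1.47% a CArG box. A match is a description of the sequence only.

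S1pr3 was at 32.6, 25.7 and 34.1 FPKM in the CFS mice (68, 69 and 70), giving 30.8 ± 4.48 (mean ± SD, n = 3). The CSS mice (54, 55 and 56) had 14.6, 17.0 and 15.5 FPKM, a mean of 15.7 ± 1.25. The CFA mice (71, 72 and 74) had 7.81, 7.94 and 11.3 FPKM, a mean of 9.03 ± 2.0. In the CSA mice (01, 02 and 03) S1pr3 was at 6.4, 5.01 and 4.65 FPKM, a mean of 5.35 ± 0.93. The order was therefore CFS, CSS, CFA and CSA from high to low, and no mouse of one group fell within the range of another. Groups did not overlap for 20.2% of all tested genes in CFA against CFS, 48.5% in CSA against CFA and 55.4% in CSA against CSS. S1pr3 fell with Ang II in CCN2fl/fl aorta (CFA against CFS, log2 fold change -1.77, SE 0.18, limma adjusted p = 0.0171) and was 1 of only 4 genes called in that comparison, 0.0273% of those tested. It also fell with Ang II in CCN2SMCΔ aorta (CSA against CSS, -1.54, SE 0.18, limma adjusted p = 4.72e-05), a comparison in which 20.3% of all tested genes were called. Between genotypes under Ang II it was lower in CSA than CFA by a log2 fold change of -0.74 (SE 0.18, limma adjusted p = 0.00774), which is inside the fold limit. Between genotypes under saline the log2 fold change was -0.96 (SE 0.18) with a limma adjusted p of 0.173, in a comparison where 20.4% of tested genes had groups that did not overlap. That adjusted p was 0.0391 with only CSS and CFS in the fit and 0.0453 without CSA mouse 03, at the same log2 fold change. The Ang II responses of the 2 genotypes differed by 0.22 (95% interval -0.34 to 0.79, limma adjusted p = 0.566), so no difference between them was detected.

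The call of S1pr3 in CFA against CFS was lost when only those 2 groups entered the fit (limma adjusted p = 0.124) and when CFS mouse 68 or 70, CSS mouse 54 or 56, or CFA mouse 71 or 72 was left out (limma adjusted p = 0.0930, 0.0878, 0.0545, 0.0615, 0.168 and 0.172), while the log2 fold change stayed between -1.94 and -1.68 over all 12 omissions. In CSA against CSS the adjusted p stayed at or under 3.97e-04 over those omissions, but the fold limit was missed without CSS mouse 55 or CSA mouse 03 (the value nearest 0 being -1.45).

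**Figure D1:**
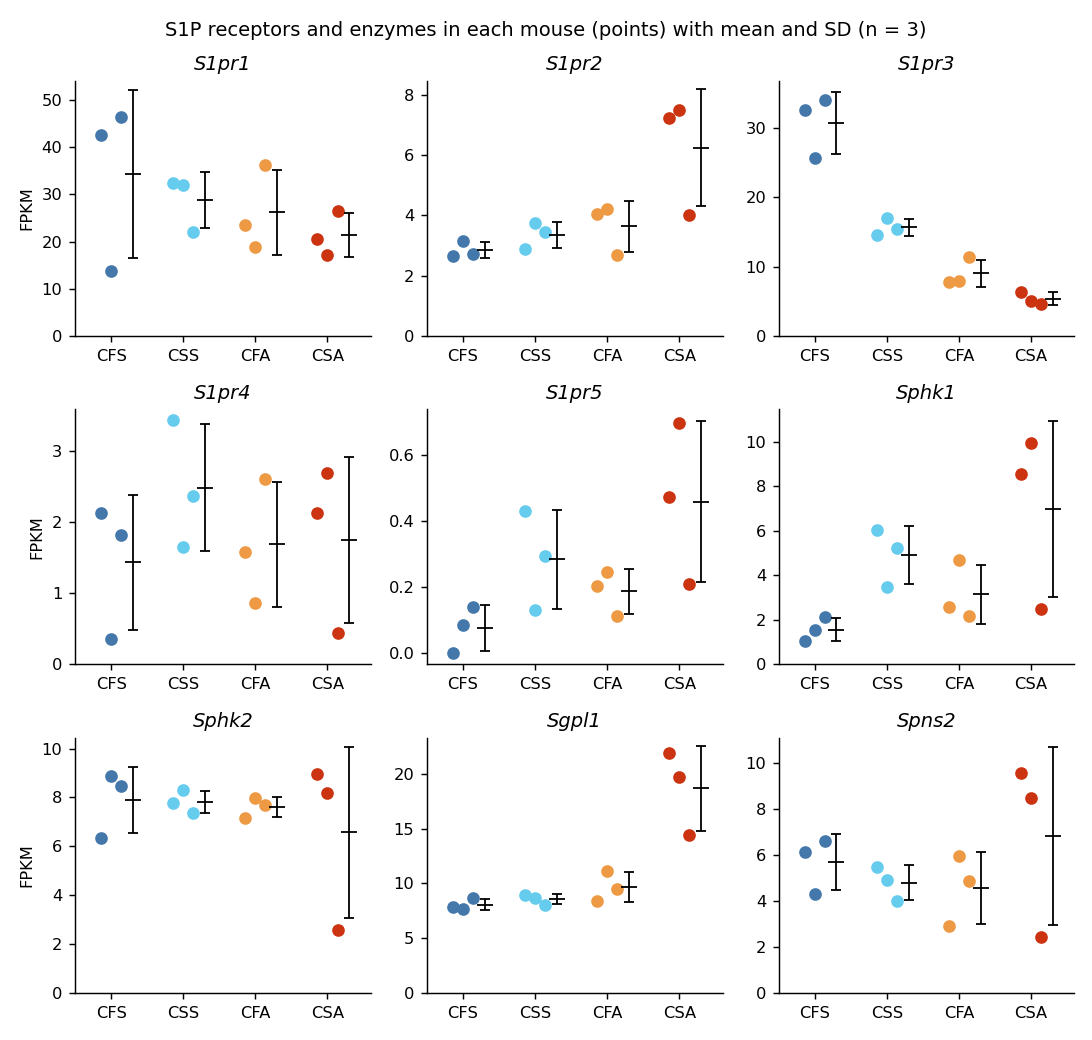
FPKM of each of the 9 genes (1 panel a gene, linear axis) in each mouse of CFS, CSS, CFA and CSA, with points for mice and a bar for the mean and SD of 3 mice. S1pr3 steps down from 30.8 in CFS to 5.35 in CSA with no overlap, Sgpl1 stands at 14.4 to 21.9 in CSA against 7.71 to 11.1 elsewhere, and CSA mouse 03 is the low point of its group in every panel except S1pr1, where it is the highest.

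Smooth muscle markers stood beside S1pr3 as follows. Between CFA and CFS none of the 10 was called by limma and 3 had an unadjusted p under 0.05, beside 0.0273% and 9.42% of all tested genes. None was at 0 in the table, their median log2 fold change was -0.27, and their summed level was 8413 to 10561 FPKM in CFS and 5699 to 8597 in CFA. Between CSA and CFA all 10 markers were called lower, beside 8.27% of all tested genes, with a median of -2.99. In a bulk library fewer cells of a type and less RNA per cell cannot be told apart. Per 1000 FPKM of the smooth muscle marker sum, S1pr3 was at 3.38 ± 0.84 (SD, n = 3) in CFS, 1.84 ± 0.28 in CSS, 1.3 ± 0.60 in CFA and 5.93 ± 0.97 in CSA. S1pr3 in CSA was thus the lowest of the 4 groups as a level and the highest of the 4 relative to the smooth muscle sum, and the part of the markers in the difference was not tested.

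S1pr2 ran the other way between the Ang II groups. It was at 2.65, 3.15 and 2.73 FPKM in CFS, a mean of 2.84 ± 0.27 (SD, n = 3), and at 2.90, 3.74 and 3.44 in CSS, a mean of 3.36 ± 0.43. CFA had 4.03, 4.23 and 2.67 FPKM, a mean of 3.64 ± 0.85, and CSA had 7.24, 7.48 and 4.03, a mean of 6.25 ± 1.93. CFS, CSS and CFA overlapped, as did CFA and CSA because mouse 03 was level with CFA mouse 71. The log2 fold change of CSA over CFA was 0.74 (SE 0.25, limma adjusted p = 0.0355), under the fold limit. That adjusted p exceeded 0.05 with no filter on low values (0.0648), with only the 2 groups in the fit (0.127), and without CSS mouse 56, CFA mouse 71 or 74, or CSA mouse 01 or 02 (0.0501, 0.0525, 0.138, 0.109 and 0.117). Without CSA mouse 03 the log2 fold change was 1.02 (limma adjusted p = 0.00156). Against CSS, CSA was higher by 0.83 (SE 0.25, limma adjusted p = 0.0179) and the groups did not overlap, in a comparison where 46.2% of tested genes had an adjusted p under 0.05 and 55.4% had groups that did not overlap. This adjusted p rose to 0.0525 with only the 2 groups in the fit and to 0.0676, 0.0628 and 0.0679 without CSS mouse 54, CSA mouse 01 and CSA mouse 02. The interaction of genotype and treatment was 0.51 (SE 0.35, limma adjusted p = 0.328), and 0.79 (limma adjusted p = 0.0373) without CSA mouse 03. Per 1000 FPKM of the smooth muscle marker sum, S1pr2 was at 0.49 ± 0.022 (SD, n = 3) in CFA and 6.82 ± 1.67 in CSA. Macrophage and monocyte markers summed to 225 to 447 FPKM in CFA and 1639 to 1837 in CSA, and the part of either list in the S1pr2 levels was not tested.

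The receptor make-up of the wall can be given because FPKM is scaled per length. In CFS the S1pr1 and S1pr3 genes took 46.6% ± 12.6 and 46.8% ± 11.1 (SD, n = 3) of the summed FPKM of the 5 receptor genes, and S1pr2 took 4.61% ± 2.34. In CSS the shares were 56.5% ± 5.30 for S1pr1, 31.3% ± 4.23 for S1pr3 and 6.71% ± 1.26 for S1pr2. In CFA they were 63.5% ± 4.83, 22.4% ± 2.0 and 9.67% ± 4.17. In CSA they were 60.7% ± 11.7, 15.2% ± 2.19 and 17.8% ± 5.89, and 54%, 16.2% and 21.1% without mouse 03. The summed level was 69.4 ± 22.9 FPKM in CFS, 50.6 ± 6.15 in CSS, 40.8 ± 10.9 in CFA and 35.3 ± 1.94 in CSA. The near-equal CFS means of S1pr1 and S1pr3 came from unlike mice: S1pr1 per S1pr3 was 1.31, 0.54 and 1.36 in CFS mice 68, 69 and 70, and without mouse 69 the mean shares were 53.9% and 40.4%. S1pr1 per S1pr3 was 2.38 to 3.20 in CFA and 3.22 to 5.70 in CSA. S1pr3 per S1pr2 was 11 ± 2.45 in CFS, 4.70 ± 0.29 in CSS, 2.68 ± 1.35 in CFA and 0.90 ± 0.24 in CSA. These shares follow from the levels above and were not tested.

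**Figure D2:**
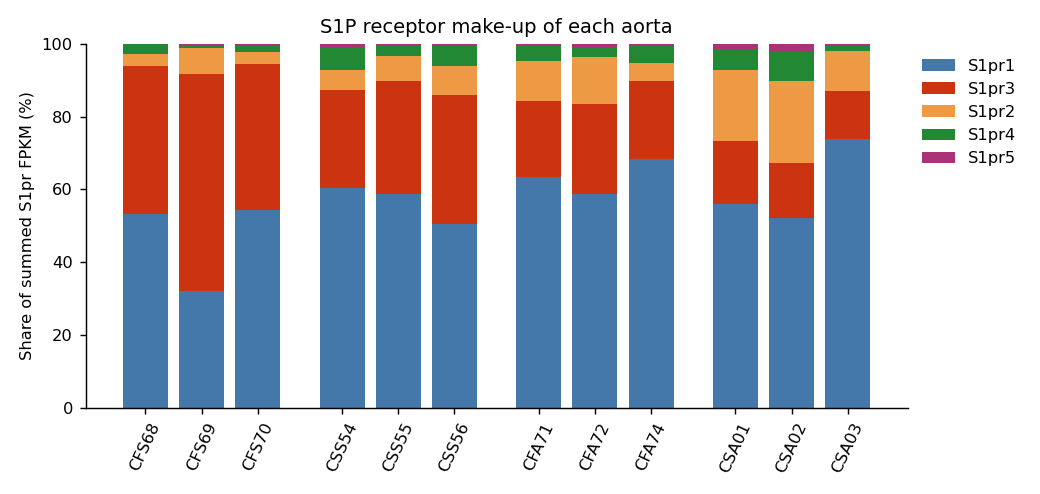
Stacked bars of the share (%) that each S1P receptor gene takes of the summed receptor FPKM in each of the 12 mice. The S1pr3 share is 40.0% to 59.6% in CFS and 13.0% to 17.4% in CSA, while that of S1pr2 is 3.20% to 7.32% in CFS and 11.2% to 22.6% in CSA.

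S1pr1, the endothelial receptor, was the most abundant or second most abundant receptor in each mouse. It was at 42.6, 13.8 and 46.4 FPKM in CFS, 32.5, 32 and 22.0 in CSS, 23.5, 18.9 and 36.3 in CFA, and 20.6, 17.2 and 26.5 in CSA. The means (± SD, n = 3) were 34.3 ± 17.8, 28.8 ± 5.93, 26.2 ± 8.99 and 21.5 ± 4.68, all groups overlapped, and no neighbours in that order differed beyond their spread. The log2 fold change of CSA over CFA was -0.26, with a 95% interval of -1.19 to 0.67 (limma adjusted p = 0.657). CFS mouse 69, low for S1pr1, was also low for endothelial markers: the 10 markers, none of them at 0, summed to 163 FPKM in that mouse and to 539 and 540 FPKM in the other CFS mice. The marker sum was 446 to 587 FPKM in CSS, 306 to 606 in CFA and 174 to 249.2 in CSA. In CSA 3 of 10 markers were called lower than in CFA, beside 8.27% of all tested genes, with a list median of -0.83. Per 1000 FPKM of this sum, S1pr1 was at 83.3 ± 3.76 in CFS, 58.4 ± 11.1 in CSS, 58.3 ± 4.73 in CFA and 106 ± 40.1 in CSA. The CSA values ran from 82.8 to 152, with mouse 03 the highest, and those in CFS from 79.0 to 86.1. The ratio depends on the markers that weigh most in the sum, and these did not move alike. Between CFA and CSA the mean of Pecam1 went from 131 to 34.7 FPKM, of Cdh5 from 47.7 to 36.7 and of Kdr from 3.83 to 7.12. The part of the markers in the S1pr1 levels was not tested.

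S1pr4, a receptor of lymphoid and myeloid cells, was low and variable, resting on 16 to 152 fragments a library. It was at 2.13, 0.36 and 1.82 FPKM in CFS, 3.43, 1.65 and 2.37 in CSS, 1.58, 0.87 and 2.61 in CFA, and 2.13, 2.69 and 0.44 in CSA, and all groups overlapped. Its log2 fold change of CSA over CFA was -0.13 with a wide 95% interval of -1.73 to 1.47 (limma adjusted p = 0.90), and it was 0.60 without CSA mouse 03. Beside it, 10 of 10 macrophage and monocyte markers, 8 of 8 T cell markers, the 6 tested of 7 neutrophil markers and the 3 tested of 8 NK cell markers were called higher in CSA than CFA, against 8.95% of all tested genes. Of these, 2 macrophage and monocyte, 8 T cell, 3 neutrophil and 2 NK cell markers passed the filter on low values only through the CSA mice (fewer than 3 mice outside CSA reached 1 FPKM), so the filter largely set the direction of their calls. The T cell sum went from 1.06 to 3.26 FPKM in CFA to 31.6 to 44.4 in CSA. The part of the leukocyte lists in the S1pr4 level was not tested. S1pr5, known from NK cells, was at 0 to 0.70 FPKM, or 0 to 37 fragments, and was left untested by the filter on low values. It was at 0 fragments in CFS mouse 68, where a floor of 3 fragments allows up to 0.065 FPKM by counting error alone. It was at 0.086 and 0.14 FPKM in the other CFS mice, 0.43, 0.13 and 0.29 in CSS, 0.20, 0.25 and 0.11 in CFA, and 0.47, 0.70 and 0.21 in CSA.

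**Figure D3:**
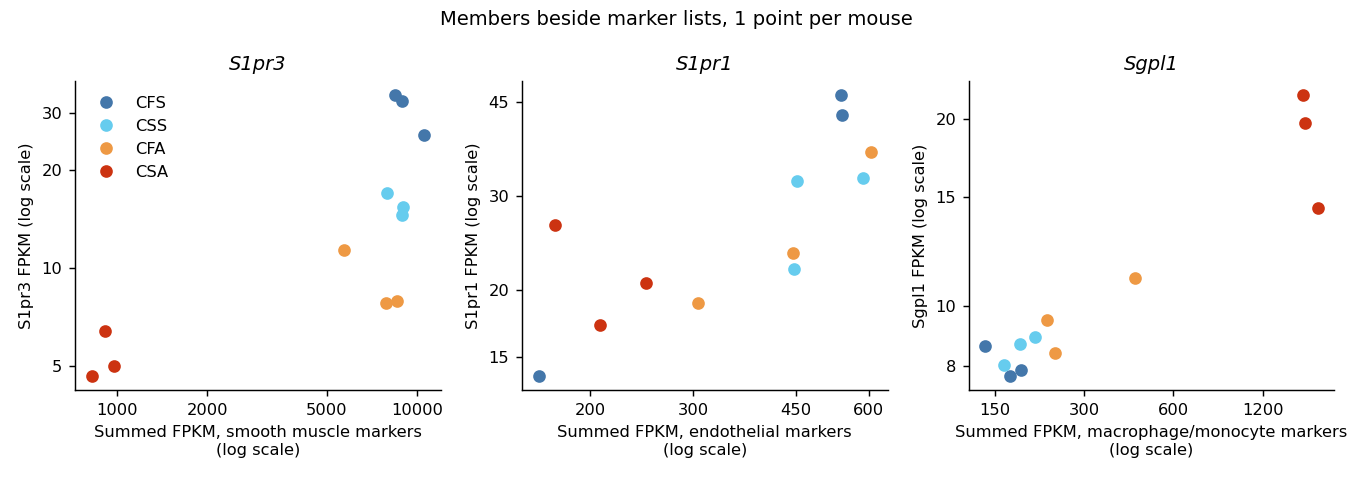
Each point is a mouse, with the summed FPKM of a marker list on the horizontal axis and the FPKM of a gene on the vertical axis (both log scales): S1pr3 against smooth muscle, S1pr1 against endothelial, and Sgpl1 against macrophage and monocyte markers. CFS and CFA mice have smooth muscle sums of 8413 to 10561 and 5699 to 8597 FPKM, where only CFA mouse 72 lies above the lowest CFS mouse. Their S1pr3 levels do not overlap, and the part of the sum in that difference was not tested. All CSA mice stand far right for Sgpl1.

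Of the enzymes, the lyase gene Sgpl1 (chr10:61098642-61147703, reverse strand) differed most firmly between the Ang II groups. It was at 7.88, 7.71 and 8.63 FPKM in CFS, 8.91, 8.70 and 8.05 in CSS, and 8.41, 11.1 and 9.48 in CFA, with means (± SD, n = 3) of 8.07 ± 0.49, 8.55 ± 0.45 and 9.67 ± 1.36. In CSA it was at 21.9, 19.7 and 14.4 FPKM, a mean of 18.7 ± 3.86. The first 3 groups did not separate beyond their spread, and every CSA mouse was above every other mouse, beside 48.5% and 55.4% of tested genes whose groups did not overlap in CSA against CFA and in CSA against CSS. The log2 fold change was 0.93 in CSA against CFA (SE 0.16, limma adjusted p = 8.86e-04) and 1.10 in CSA against CSS (SE 0.16, limma adjusted p = 2.33e-04), both under the fold limit. An adjusted p under 0.05 was reached by 40.7% of tested genes in the first comparison and by 46.2% in the second. The response to Ang II was larger in CCN2SMCΔ than in CCN2fl/fl aorta by 0.85 (SE 0.23, limma adjusted p = 0.0188), a test that reached 0.0502 without CSS mouse 56 and 0.0519 without CFA mouse 71. Macrophage and monocyte markers summed to 140 to 184 FPKM in CFS, 161 to 206 in CSS, 225 to 447 in CFA and 1639 to 1837 in CSA, with none of the 10 at 0, and their part in the Sgpl1 difference was not tested.

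Sphk1, the inducible sphingosine kinase, was at 1.05, 1.53 and 2.11 FPKM in CFS (1.57 ± 0.53, SD, n = 3), the lowest group. CSS had 6.03, 3.49 and 5.22 FPKM (4.91 ± 1.3), CFA had 2.57, 4.67 and 2.18 (3.14 ± 1.34), and CSA had 8.55, 9.92 and 2.49 (6.99 ± 3.96). Each mouse of CSS and of CFA was above each CFS mouse, while CSA overlapped both. The log2 fold changes were 1.60 in CSS against CFS (SE 0.49, limma adjusted p = 0.515) and 0.93 in CFA against CFS (SE 0.49, limma adjusted p = 0.616), neither past the threshold, in comparisons where 20.4% and 20.2% of tested genes had groups that did not overlap. CSA mouse 03 enters these 2 comparisons only through the shared spread. Without it the SE was 0.32 in both and the limma adjusted p 0.0789 and 0.179, at the same fold changes. In CSA against CFA the log2 fold change was 0.98 (SE 0.49, limma adjusted p = 0.134), and without CSA mouse 03 it was 1.60 (limma adjusted p = 0.00440), which would be a call. With that library kept and each library centred within bins of transcript GC content, a setting chosen after seeing the data, it was 1.3 (limma adjusted p = 0.00788), inside the fold limit.

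Sphk2, the constitutive kinase, was at 6.35, 8.87 and 8.48 FPKM in CFS, 7.75, 8.30 and 7.38 in CSS, 7.16, 7.99 and 7.68 in CFA, and 8.95, 8.18 and 2.56 in CSA. Apart from CSA mouse 03, the 11 mice lay between 6.35 and 8.95 FPKM. The log2 fold change of CSA over CFA was -0.40 (95% interval -1.22 to 0.42, limma adjusted p = 0.422) and 0.17 without mouse 03. Of its exonic bases 21.9% are shared with Dbp and Rpl18 on the opposite strand, and the strandedness of counting is not given in the sources used here, so reads from those genes could not be told apart there. Sphk1 per Sphk2 was 0.20 ± 0.046 in CFS, 0.64 ± 0.19 in CSS, 0.41 ± 0.16 in CFA and 1.05 ± 0.14 in CSA. In this ratio the 3 CSA mice lay close together (0.96, 1.21 and 0.97), mouse 03 included.

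Spns2, the S1P exporter, was at 6.13, 4.31 and 6.62 FPKM in CFS, 5.48, 4.89 and 3.98 in CSS, 2.89, 5.96 and 4.85 in CFA, and 9.55, 8.47 and 2.41 in CSA. All groups overlapped, since CSA held both the highest values and the lowest. The log2 fold change of CSA over CFA was 0.40 (SE 0.45, limma adjusted p = 0.509), and 1.02 (limma adjusted p = 0.0137) without mouse 03. Against CSS the log2 fold change of CSA was 0.29 (SE 0.45, limma adjusted p = 0.629), and 0.91 (limma adjusted p = 0.0211) without mouse 03. The interaction was 0.64 (SE 0.64, limma adjusted p = 0.510), and 1.26 (limma adjusted p = 0.0278) without mouse 03.

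**Figure D4:**
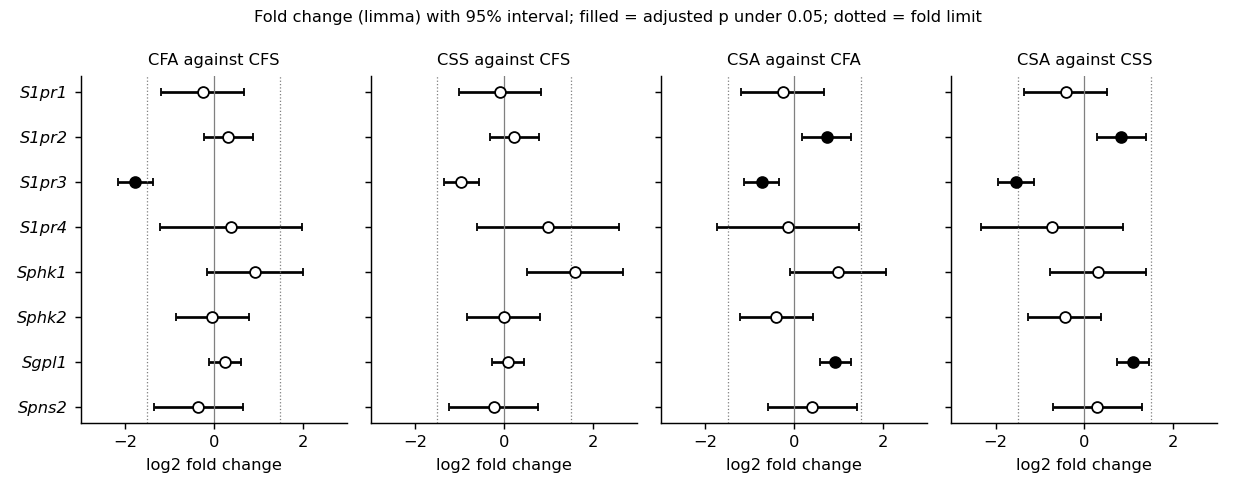
log2 fold change (limma) with its 95% interval for the 8 tested genes in 4 comparisons, filled where the adjusted p is under 0.05, with dotted lines at the fold limit of 1.5. S1pr3 lies beyond the limit in CFA against CFS (-1.77) and CSA against CSS (-1.54), and Sgpl1, S1pr2 and S1pr3 are filled in CSA against CFA.

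Of the 9 genes, 8 passed the filter on low values. In CSA against CFA none of the 8 was called by limma, against 17.2% of all tested genes. An adjusted p under 0.05 was reached by 3 of them, against 40.7% of all genes, with 2 higher (19.5% of all genes) and 1 lower (21.2%). An unadjusted p under 0.05 was also reached by 3, against 49%, and the groups of 2 genes did not overlap, against 48.5%. Their median log2 fold change was 0.14, beside -0.04 over all tested genes. In CSS against CFS none was called or had an adjusted p under 0.05 by limma, against 0.0136% and 0.0204% of all genes, 2 had an unadjusted p under 0.05, against 6.3%, and 2 had groups that did not overlap, against 20.4%. In CFA against CFS 1 was called, which was also the only one with an adjusted or unadjusted p under 0.05, against 0.0273%, 0.0341% and 9.42% of all genes, and 2 had groups that did not overlap, against 20.2%. In CSA against CSS 1 was called, against 20.3%, 3 had an adjusted and 3 an unadjusted p under 0.05, against 46.2% and 52.9%, and 3 had groups that did not overlap, against 55.4%. For the interaction none was called by limma, against 15.2%, and 1 had an adjusted and an unadjusted p under 0.05, against 26.4% and 37.7%. As a group the 8 genes therefore did not exceed the background of the Ang II comparison between genotypes.

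CSA mouse 03 departed from its group in a way that followed the GC content of the transcript. Its median log2 deviation from mice 01 and 02 was 0.63 for genes under 42% GC and -1.28 for the 1333 genes at 58% GC or more. Sphk1, S1pr4, Sphk2 and Spns2 have longest transcripts of 59.6%, 59.3%, 58.6% and 58% GC and deviated by -1.85, -2.21, -1.70 and -1.86 in that mouse. S1pr2 and S1pr3, both at 51.6% GC, deviated by -0.85 and -0.28, and S1pr1 and Sgpl1, both at 48.8%, by 0.49 and -0.53. With every library centred within 20 bins of GC content, the setting that gave 1.3 for Sphk1 in CSA against CFA, the log2 fold changes of S1pr3 (-0.70), S1pr2 (0.77) and Sgpl1 (0.87) differed little from the values above. Those of the other high-GC genes moved more: Spns2 from 0.40 to 0.73 (limma adjusted p = 0.0634), Sphk2 from -0.40 to -0.08 and S1pr4 from -0.13 to 0.19.

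**Figure D5:**
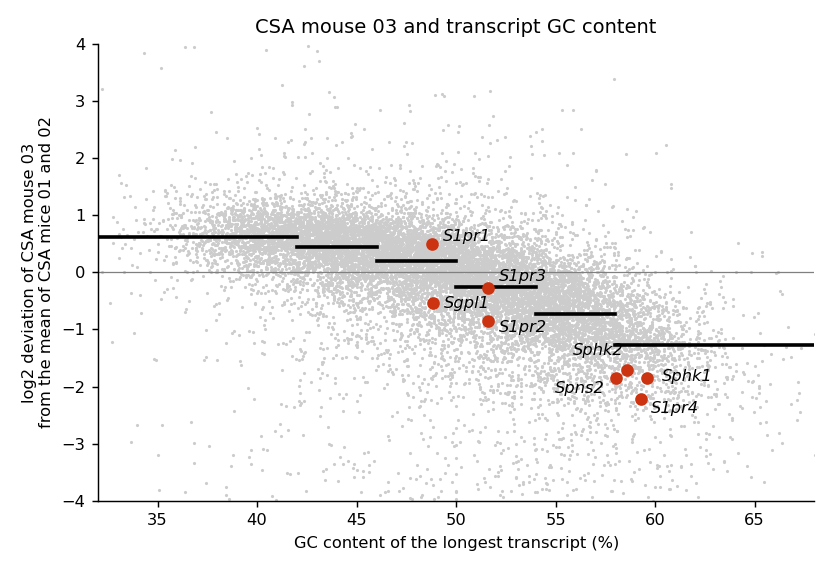
For every tested gene, the GC content of its longest transcript (%) against the log2 deviation of CSA mouse 03 from the mean of CSA mice 01 and 02, with black lines at the median of each GC class and red points for the 8 tested genes. The medians run from 0.63 at low GC to -1.28 at high GC, and Spns2, Sphk2, Sphk1 and S1pr4 lie lowest at the right.

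The surrounding pathway was followed in 6 lists of 75 genes, of which 66 were tested. In CFA against CFS and in CSS against CFS none of the 66 was called by limma, beside 0.0273% and 0.0136% of all tested genes. An unadjusted p under 0.05 was reached by 5 and 6 of them, beside 9.42% and 6.3% of all tested genes. In CSA against CFA 6 were called higher and 5 lower, beside 8.95% and 8.27% of all tested genes. An adjusted p under 0.05 was reached by 21 higher and 19 lower, beside 19.5% and 21.2% of all tested genes. Of the 6 called higher, 3 (Plcb2, Cd69 and Lpar5) passed the filter on low values only through the CSA mice, which fixed their direction. The 62 genes that passed without the CSA mice had 3 called higher and 5 lower. Ceramide synthesis, which supplies the backbone, had 1 of 14 tested genes called: Cers6, a ceramide synthase, rose from 1.82 ± 0.79 to 8.90 ± 1.68 FPKM (SD, n = 3, limma log2 fold change 2.30, adjusted p = 8.66e-05). Among 14 tested genes that release sphingosine or use ceramide, Ugcg, which makes glucosylceramide, rose from 5.80 ± 0.48 to 28.0 ± 10.2 FPKM (limma log2 fold change 2.19, adjusted p = 1.96e-05) and Smpd3, a neutral sphingomyelinase, fell from 7.33 ± 0.99 to 2.19 ± 0.076 FPKM (limma log2 fold change -1.69, adjusted p = 0.00957, inside the fold limit with a pseudocount of 1 and with GC-bin centring). None of the 7 tested genes of S1P removal and transport was called by limma, and 2 were higher and 3 lower at an adjusted p under 0.05. Of those 7, named after their values were seen, the lipid phosphatases Plpp3 and Plpp1 were lower in CSA (limma log2 fold change -1.3 and -0.77) and the S1P phosphatase Sgpp1 was higher (0.66, adjusted p = 0.0160 by limma, 0.0953 with only the 2 groups in the fit and 0.0537 without CFA mouse 74). In the same list Abcc1 went from 7.53 ± 0.86 FPKM in CFA to 3.19 ± 0.69 in CSA, and Abca1 from 9.56 ± 2.68 to 16.4 ± 2.40.

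The 18 tested G proteins and effectors below the receptors had 1 gene called higher and 4 called lower in CSA against CFA, beside 8.95% and 8.27% of all tested genes, with a median of -0.44 beside -0.04. Plcb4, a phospholipase C isoform, fell from 23.3 ± 2.32 to 5.21 ± 1.84 FPKM (SD, n = 3, limma log2 fold change -2.19, adjusted p = 2.07e-05). Arhgef12, a RhoA exchange factor driven by G12/13, fell from 26.9 ± 1.66 to 8.09 ± 0.83 FPKM (limma log2 fold change -1.73, adjusted p = 2.95e-06). Plcb2, an isoform of blood cells, was at 0.46 ± 0.33 FPKM in CFA and 4.42 ± 1.69 in CSA (limma log2 fold change 3.11). It was at most 0.83 FPKM in every mouse outside CSA, so its call rests on the group that let it be tested, and with no filter its limma adjusted p was 4.91e-04. The other 2 genes called lower were Gnai1 and Rock1 (limma log2 fold change -1.69 and -1.54). Leaving out 1 mouse brought Gnai1 to -1.47 (without CSA mouse 01) and Rock1 to -1.32 at the nearest to 0 (without CSA mouse 01, and also inside the fold limit without CSA mouse 02 or CFA mouse 72). The list's 5 calls became 2 without CSA mouse 01 and 3 without CSA mouse 02, in part because Plcb2 then left the test. The smooth muscle and leukocyte marker sums given above moved with these genes, and their part was not tested.

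Regulators of S1P receptors and kinases had 2 of 8 tested genes called in CSA against CFA, both higher, beside 8.95% of all tested genes called higher. Of the 7 that passed the filter without the CSA mice, 1 was called. Arrb2, a beta-arrestin that desensitizes receptors, rose from 6.98 ± 2.76 to 60.0 ± 12.2 FPKM (SD, n = 3, limma log2 fold change 3.13, adjusted p = 5.11e-06). Cd69, a lymphocyte protein that pulls S1PR1 off the cell surface, was at 1 to 7 fragments in CFS, 2 to 3 in CSS, 2 to 44 in CFA and 264 to 328 in CSA. It was at most 0.32 FPKM outside CSA and at least 2.26 in CSA, so that it entered the test only through CSA and left it when any CSA mouse was omitted. With no filter its limma adjusted p in CSA against CFA was 1.5e-04. The related lysophosphatidic acid receptors had 1 of 5 tested genes called higher, beside 8.95% of all tested genes. That gene was Lpar5, at 0.15 to 0.40 FPKM in CFA and 1.94 to 3.39 in CSA. Lpar5 too passed the filter only through the CSA mice, and with no filter its limma adjusted p was 0.00121. The macrophage, monocyte and T cell marker sums given above rose in the same mice as Arrb2, Cd69 and Lpar5, and their part was not tested.

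Across the 12 mice the genes most like each member in log2(FPKM + 0.1) were Irf5, Fcho1 and Mov10 for Sgpl1 (Pearson r of 0.993, 0.991 and 0.990), Slc39a1, Ap2s1 and Loxl3 for S1pr2 (0.979, 0.974 and 0.969), and Dnmbp, Lmtk2 and Brf2 for S1pr3 (0.967, 0.955 and 0.953). They were Palmd, Adgrf5 and Atp10d for S1pr1 (0.915, 0.911 and 0.909) and Afg3l1, Arpc1b and Slc41a1 for Sphk1 (0.947, 0.934 and 0.931). For Sphk2 they were Pias4, Tle3 and Ganab (0.987, 0.982 and 0.981), for S1pr4 2900052L18Rik, Als2cl and Egfl7 (0.937, 0.935 and 0.933), and for Spns2 Timmdc1, Mocs1 and Mrtfa (0.936, 0.912 and 0.909). The mice share group and library effects, mouse 03 included, so these values describe likeness only.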

How the data were processed

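RNA of the abdominal aorta of 12 male mice was poly(A)-selected and sequenced as paired reads of 150 bases. The deposited values are FPKM made by the authors. The submitters' processing notes list HISAT2 2.0.5, StringTie 1.3.3b, featureCounts 1.5.0-p3 and the build mm10, without roles. Whole fragments were recovered from the FPKM and the gene lengths: 97.8% to 98.4% of values under 100 fragments were whole within 0.02. The deposited FPKM carry a further scaling between libraries. Dividing by recovered library totals instead shifts the median log2 fold change by 0.15 in CSA against CFA and 0.18 in CSA against CSS.

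Log2(FPKM + 0.1) was fitted with limma 3.58.1 (trend and robust settings) in R 4.3.3, 1 coefficient per group, after a check on simulated data. limma with the study's fold limit took the place of the count-based DEG-Seq, since the values are FPKM. The fold changes of low genes are understated by the added 0.1. Nothing in the labels says that mice share a litter or batch, so p-values measure the spread between these mice. The genes named are all 9 members, up to 3 called genes with the largest absolute log2 fold change of each pathway list in CSA against CFA, the 3 genes most like each tested member, and Ccn2. Plpp3, Plpp1, Sgpp1, Abcc1, Abca1, Gnai1 and Rock1 fall outside that rule and were named after their values were seen. The members and lists were chosen with earlier results of these data known. Gene positions and transcript GC content come from GENCODE M21. Marker lists (14 lists of 104 genes) were read as summed FPKM. In all, 22 alternatives were run.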

Additional observations from a re-analysis of the deposited data

Results flagged for a closer look

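The response to Ang II differed between genotypes by the interaction term of the limma fit (CSA minus CFA, less CSS minus CFS, in log2 units, adjusted p under 0.05) for 1 of the 8 tested S1P genes, beside 26.4% of all tested genes. For Sgpl1 the difference was 0.85 (limma adjusted p = 0.0188), higher in CSA in 3 of 3 mice than in any other mouse, and its adjusted p was 0.0502 without CSS mouse 56 and 0.0519 without CFA mouse 71. Without CSA mouse 03 the term also passed for S1pr2 (0.79, limma adjusted p = 0.0373) and Spns2 (1.26, limma adjusted p = 0.0278).

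Of the 66 tested genes of the surrounding pathway, the same term passed for 16 with a positive and 14 with a negative value, beside 26.4% of all tested genes. It passed for 13 of the 14 named pathway genes, with Abcc1 and Abca1 left out of this count. The count was largely set by their choice, since they were named for their difference between CSA and CFA or after their values were seen, and that difference is part of the term. It was 2.02 for Cers6, 2.30 for Ugcg, 2.11 for Plcb2, 2.76 for Arrb2 and 2.80 for Lpar5. It was -2.27 for Smpd3, -2.11 for Plcb4, -1.84 for Arhgef12, -1.90 for Gnai1, -1.46 for Rock1, -1.05 for Plpp1 and -0.86 for Plpp3. For Cd69 it was 3.79, a fitted value that depends on the added 0.1 FPKM because Cd69 rested on 1 to 7 fragments in the saline groups. The value of Lpar5 has the same limit, as Lpar5 rested on 1 to 10 fragments in CFS and 2 to 7 in CSS. Plcb2, Cd69 and Lpar5 passed the filter on low values only through CSA, which fixed their direction. By limma the adjusted p of Rock1 was over 0.05 in 7 of 12 omissions of 1 mouse (up to 0.0674) and with no filter (0.0523). That of Plcb2 was over 0.05 in 6 of the 9 omissions that gave a value (up to 0.0866) and with no filter (0.0546). That of Plpp3 was over 0.05 in 2 of 12 omissions (0.0556 and 0.0569) and with library totals (0.0733). Dixon's test for single outlying values was not run on groups of 3. CSA mouse 03 was set apart by its distance from its group mates over all tested genes.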

How the results depend on the processing

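The direction of S1pr3, S1pr2 and Sgpl1 held in every comparison and every alternative that gave a value. Many alternatives could not change a direction. The filter, eBayes and 2-group settings, and omission of a mouse outside a comparison, return the same log2 fold change. Median-of-ratios scaling had the same factor (1.01) in each library. Only the other settings and omissions within a comparison could move it. S1pr5 was under the filter and has no fold change. With an adjusted p and no fold limit, 3 members passed in CSA against CFA, 3 in CSA against CSS and 1 for the interaction, beside 40.7%, 46.2% and 26.4% of all tested genes. With an unadjusted p and the fold limit, 1 passed in CSS against CFS (Sphk1). The share of all tested genes passing both limits was not computed, and 6.3% had an unadjusted p under 0.05 by limma. In CFA against CFS, 0 were called when only those 2 groups were fitted. In CSA against CSS, 0 were called with a pseudocount of 1, with library totals and with GC-bin centring. Leaving out 1 mouse at a time gave 0 to 1 calls in CSA against CFA (1 without CSA mouse 03), in CFA against CFS and in CSA against CSS. The release and use list of the pathway had 1 call with a pseudocount of 1 and 2 to 4 over the omissions, G proteins and effectors 2 to 5, regulators 1 to 2, and lysophosphatidic acid receptors 0 to 2.

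Log2 fold changes whose sign changed were near 0 or wide. For S1pr4 in CSA against CFA the value was 0.011 with library totals, 0.19 with GC-bin centring and -0.58 to 0.60 over the omissions, and the omissions gave -0.34 to 0.80 in CFA against CFS and -1.18 to 0.0063 in CSA against CSS. For S1pr1 they gave -0.47 to 0.0014 in CSA against CFA, -0.65 to 0.22 in CSS against CFS, -0.81 to 0.058 in CFA against CFS and -0.48 to 0.39 for the interaction. For Sphk2 they gave -0.72 to 0.17, -0.15 to 0.088, -0.19 to 0.051, -0.75 to 0.13 (CSA against CSS) and -0.71 to 0.17 (interaction, 0.027 with GC-bin centring). In CSA against CSS, Sphk1 ranged from -0.048 to 0.93 and Spns2 from -0.062 to 0.91. The cause was not tested. No paired analysis was possible because the groups share no mouse numbers. Depth limits S1pr4, S1pr5, Cd69 and Lpar5, which rest on few fragments. Over all alternatives that gave a value, the Lpar5 interaction ranged from 1.53 to 3.23. In CSA against CFA the log2 fold change ranged from 1.53 to 3.27 for Lpar5, 1.61 to 4.24 for Cd69 and 1.87 to 3.56 for Plcb2.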

Other observations

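Marker lists not set beside an S1P gene above also differed between the Ang II groups, where 8.95% of all tested genes were called higher and 8.27% lower. By limma all 5 tested erythrocyte markers were lower in CSA than CFA (median log2 fold change -3.01), as were 2 of 6 adipocyte markers (median -2.0). Fibroblast markers moved both ways: 1 of 8 was called lower. At a limma adjusted p under 0.05, 2 were higher and 3 lower, beside 19.5% and 21.2% of all tested genes. Their median log2 fold change was 0.34. Their summed level was 2294 to 2519 FPKM in CFA and 3636 to 4342 in CSA, without overlap. Of 3 tested B cell markers 2 were called higher, and all 3 passed the filter on low values only through the CSA mice. None of the 3 lymphatic endothelial, 5 platelet, 5 oligodendrocyte and Schwann cell or 4 skeletal muscle markers tested was called by limma (1, 2, 3 and 0 at an unadjusted p under 0.05, beside 49% of all tested genes). Skeletal muscle markers set 2 saline libraries apart: they summed to 161 FPKM in CFS mouse 68 and 263 in CSS mouse 55, against 2.71 to 5.94 in every other mouse.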
